A study of Mus musculus with 4 samples.

Results

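The genes described here are the 51 protein-coding mouse genes named Zfp plus a number on chromosomes 2 and 4, chosen by symbol and position, out of 21883 protein-coding genes on the main chromosomes. Chromosome 2 held 24 of them and chromosome 4 held 27. H3K9me3, a histone mark of silenced chromatin, had been mapped in cultured muscle stem cells, sorted from mouse muscle with magnetic beads, by native chromatin immunoprecipitation followed by sequencing. The deleted culture was treated with 4-hydroxytamoxifen for 72 h, which activates a Cre recombinase and removes loxP-flanked Setdb1, and the control culture received ethanol. The genotype was written as Setdb1lox/lox;Pax7GakaCreERT2 for the control library. The same label ended in CreERT3 for the deleted library, with no reason given. Both cultures therefore carried the loxP-flanked gene and the Cre, which is driven by Pax7, a gene of muscle stem cells. The labels name the cells a primary line and do not give the age, the sex or the number of animals. Each condition was represented by 1 H3K9me3 library, which leaves every difference without a replicate check, and none was tested.

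Zfp genes encode proteins with zinc fingers of the C2H2 type, and the ones that sit in clusters mostly also carry a KRAB domain. A KRAB zinc finger protein binds DNA, often inside transposable elements, and recruits TRIM28, which brings SETDB1, the enzyme that methylates H3K9. Clusters of these genes are themselves known to carry H3K9me3. In human cells the mark lies mainly over the 3′ exons that encode the fingers, where ZNF274 is known to recruit TRIM28 and SETDB1.

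The deleted and control lists of broad peaks covered similar lengths of the genome as a whole, though not of each chromosome. The deleted list held 113503 peaks over 134 Mb and the control list 105709 peaks over 133 Mb, and read depth is unknown. Of these, 11.5% in the deleted list and 18.8% in the control list had a −log10 q, as the authors gave it, of at least 2. The 2 chromosomes described here differed in this respect. Peaks covered 6.62% of chromosome 4 in the deleted list and 5.69% in the control list. For chromosome 2 the values were 4.88% and 4.98% in that order. Of 8 muscle stem cell genes, including Pax7, Myf5 and Myod1, all were at 0% in the deleted list. Calcr alone had any peak in the control list, at 1.48%. All 3 markers of differentiating muscle and 4 of 6 markers of other cell types had no peak in either list. The same held for 64.6% of all protein-coding genes. Among the markers of other cell types, Adgre1 was at 19.9% in the deleted list and 20.1% in the control list. Ptprc was at 0.753% and 0% in that order. Coverage by the mark does not measure expression. The Zfp genes were compared by the percent of a window, the gene body plus 5 kb on each side, that was covered by peaks.

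The Zfp genes of chromosomes 2 and 4 were among the more heavily marked genes in both cultures, and coverage was on average slightly higher in the deleted one. Mean window coverage was 21.8% in the deleted list and 18.7% in the control list, a difference of 3.10 points, against 2.89% in both lists over all protein-coding genes. The median was 3.75% in the deleted list and 4.57% in the control list. The median difference between the lists was 0 points, as it was over all protein-coding genes. Coverage was higher in the deleted list for 25 genes, which is 49.0%, where 18.7% of all protein-coding genes were higher. It was lower for 9 genes, where 16.7% of all protein-coding genes were lower. The other 17 had no peak in either list, 33.3% of the set, against 64.6% of all protein-coding genes.

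A difference of 10 points or more was reached by 5 genes in the higher direction, 9.80% of the set, and by 0 genes in the lower direction. Among peaks with a −log10 q of at least 3, 4 genes were higher and 6 lower by that much, and the mean difference was -1.15 points. Over all protein-coding genes, 2.39% were higher and 2.52% were lower by that much. A gene with little coverage cannot differ by 10 points downwards. Among genes covered at 10% or more in either list, 5 of 24 Zfp genes (20.8%) were higher and 0 were lower by 10 points. Of 2245 such protein-coding genes, 23.3% were higher and 24.5% lower. The share of higher genes was therefore near that of other marked genes, and the share of lower genes was not. By any amount, 20 of the 24 (83.3%) were higher and 4 lower, where 51.8% of the 2245 were higher. These 24 were picked by the same values, and the shares are a description. The 316 Zfp genes on other chromosomes had 26 higher (8.23%) and 2 lower (0.633%), with means of 11.3% in the deleted list and 9.73% in the control list. Differences of the same sign were therefore also seen outside chromosomes 2 and 4. Other genes of chromosome 2 did not share this sign. The mean over the 1782 protein-coding genes of chromosome 2 was 5.12% in the deleted list and 6.001% in the control list, whereas the 1328 of chromosome 4 had 3.14% and 2.36% in the same order.

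**Figure D1:**
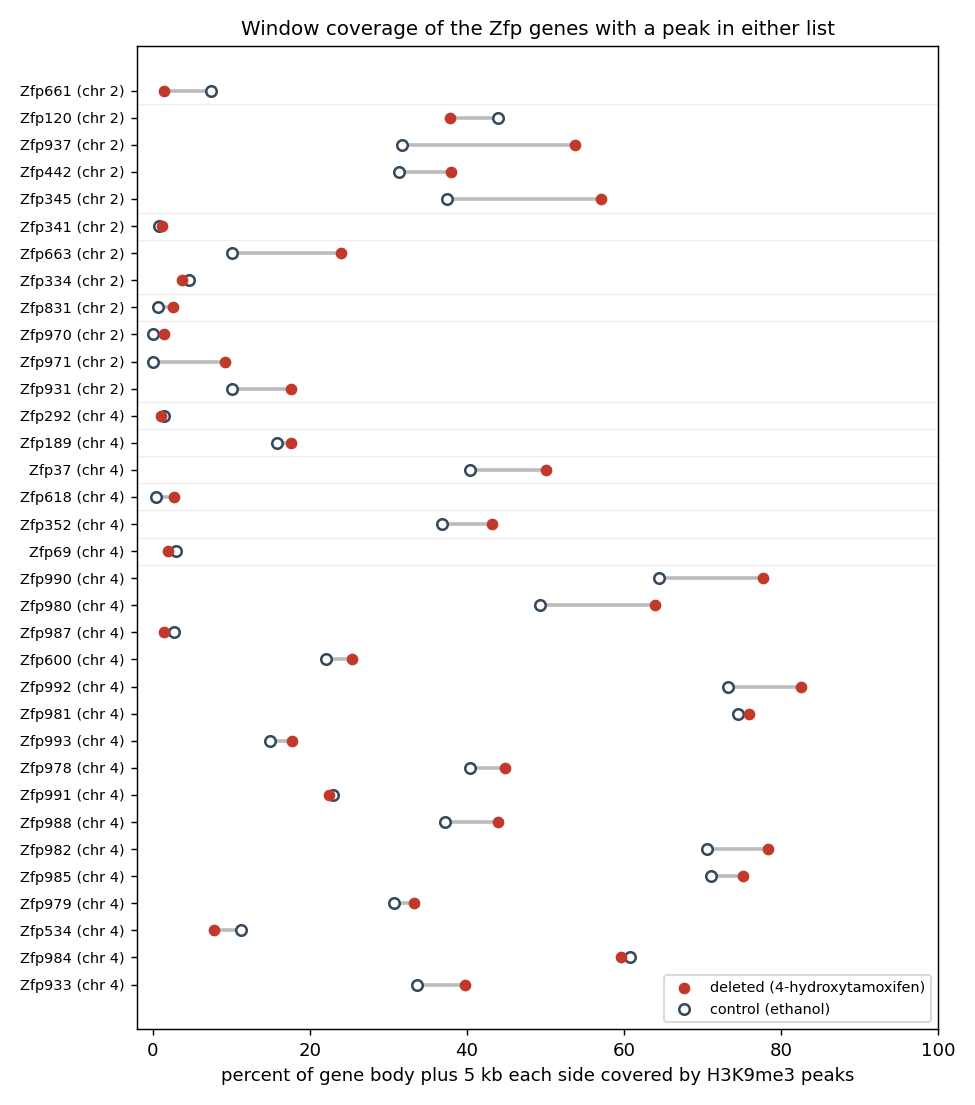
Each row is 1 of the 34 Zfp genes with a peak in either list, in chromosome order from top to bottom, and the x axis gives the percent of the gene body plus 5 kb on each side covered by peaks. Filled points are the deleted list and open points the control list, with 1 library each and no error bars. Zfp937, Zfp345, Zfp980, Zfp663 and Zfp990 lie furthest to the right of their control points.

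Neighbouring genes no more than 500 kb apart were grouped, which gave 5 clusters of 3 or more genes, 1 pair and 19 lone genes. The groups differed far more from each other than the cultures did. On chromosome 4, 16 genes from Zfp990 to Zfp933 had mean window coverage of 46.8% in the deleted list and 42.5% in the control list. On chromosome 2, the 4 genes from Zfp120 to Zfp345 had 46.7% and 36.1% in the same order. The 3 genes from Zfp335 to Zfp334 had 9.25% and 4.88%, and the 4 from Zfp970 to Zfp931 had 7.05% and 2.53%. The 3 genes from Zfp968 to Zfp966 and the pair Zfp967 and Zfp973 had no peak in either list.

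The chromosome 4 cluster spans 2338 kb (mm10, chromosome 4, 145510759 to 147849126) and was the widest of the groups. Peaks covered 31.8% of the span in the deleted list and 28.2% in the control list, as 180 and 165 peaks. The 500 kb on each side of it were covered at 9.33% in the deleted list and 8.42% in the control list. Of the 24 bins of 100 kb that the cluster touches, 11 were covered at 30% or more in the deleted list and 10 in the control list. Among all 27210 bins of the genome, 2.55% reached that level in the deleted list and 3.38% in the control list. The mark was not limited to the Zfp genes. Member gene bodies were covered at 36.1% in the deleted list and 32.1% in the control list, and the sequence between them at 27.6% and 24.4% in that order. The span also holds 61 other annotated genes, 59 of them noncoding genes or pseudogenes, and the windows of those 59 averaged 37.8% in the deleted list and 32.0% in the control list.

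Within the cluster, coverage ranged from 1.399% to 82.5% in the deleted list and from 2.66% to 74.5% in the control list. Zfp992 was the most covered member in the deleted list, at 82.5%, against 73.2% in the control list. Zfp981 was the most covered in the control list, with 76.0% in the deleted list and 74.5% in the control list. Its window was reached by 2 peaks in each list, the widest 29964 bp in the deleted list and 29297 bp in the control list. Zfp992 and Zfp981 were among the most covered members in either culture.

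The 2 members that differed by 10 points or more were Zfp980, at 63.9% in the deleted list and 49.2% in the control list, and Zfp990, at 77.7% in the deleted list and 64.4% in the control list. The widest peak reaching Zfp980 was 13558 bp in the deleted list and 7788 bp in the control list. That of Zfp990 was 25821 bp in the deleted list and 26700 bp in the control list (widths are of whole peaks, which can reach beyond the window). Among peaks with a −log10 q of at least 3, Zfp990 differed by -16.0 points, and by 0 with peaks joined within 5 kb. Zfp980 differed by 5.18 points with peaks joined within 5 kb and by 6.55 at a −log10 q of at least 3. Of the 16 members, 12 were covered more in the deleted list and 4 less. The windows of some members overlap, so they are not independent. Zfp981 shares its widest peak with Zfp993, a gene model of 478.6 kb, and Zfp991 and Zfp988 lie inside Zfp978.

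Other genes of the cluster were covered less than its mean. Zfp600 was covered at 25.3% in the deleted list and 22.0% in the control list. Zfp534 was covered at 7.78% in the deleted list and 11.2% in the control list, and was one of the 4 members covered less. Zfp987, the least covered member in both lists, had 1.399% in the deleted list and 2.66% in the control list, each from 1 peak. Zfp979, also called Ssm1b and known as a strain-specific modifier that leads to methylation of a transgene in mouse, had 33.2% in the deleted list and 30.7% in the control list.

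**Figure D2:**
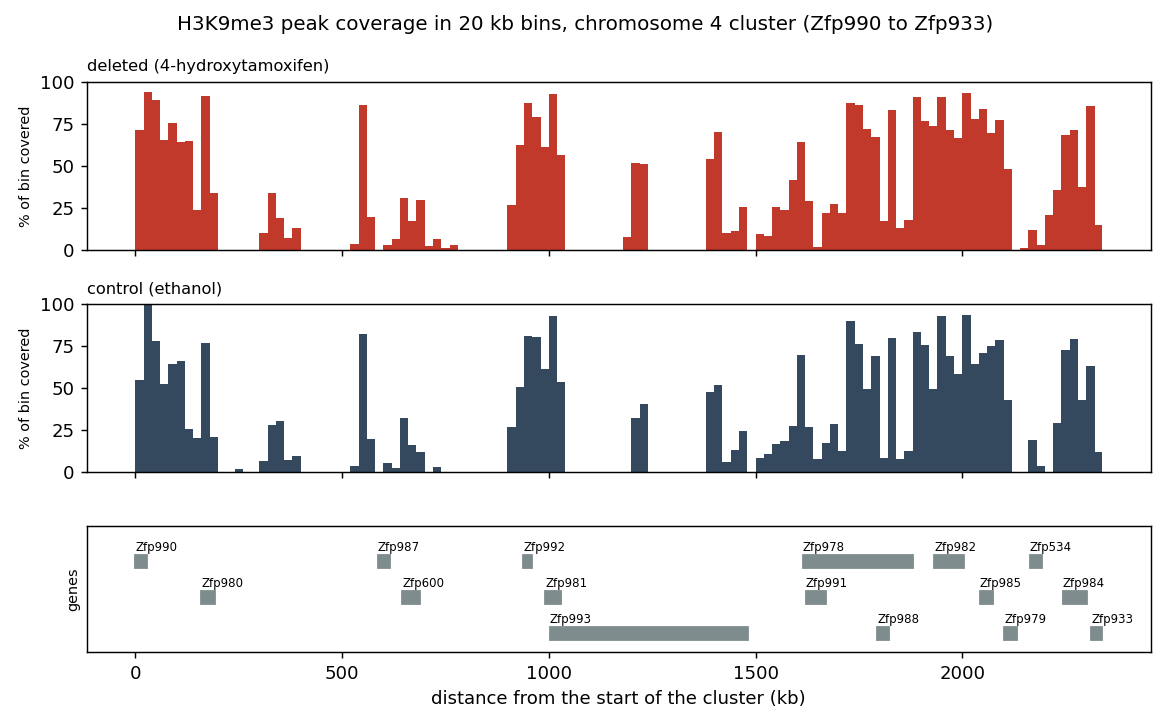
The upper panel (deleted) and the middle panel (control) give the percent of each 20 kb bin covered by peaks, against distance in kb from the start of the chromosome 4 cluster, and grey boxes mark the 16 Zfp genes. Of 117 bins, 33 are empty in both panels, 6 are covered in the deleted panel alone and 1 in the control panel alone. Bins of this size were not counted over the whole genome.

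The peaks in this cluster stood out in confidence and were mostly found in both cultures. In the windows of its members, 82 of 114 deleted-list peaks, 71.9% (Wilson 95% interval 63.1 to 79.4%), had a −log10 q of 2 or more, and 78 of 108 control peaks did so, 72.2% (63.1 to 79.8%). These intervals cover counting error only. Over the span, the bases covered in both lists were 80.3% of the deleted-list bases and 90.4% of the control bases. These shares were not computed over the whole genome, and wide peaks overlap more easily. Median peak width in the member windows was 2960 bp in the deleted list and 2592 bp in the control list. Over all peaks it was 854 bp and 904 bp in that order. Of 117 bins of 20 kb, 19 were covered at least 10 points more in the deleted list and 1 at least 10 points less. The share of such bins over the whole genome was not computed, and chromosome 4 as a whole was also covered more in the deleted list. The span difference of 3.58 points was 3.19 among peaks with a −log10 q of at least 2 and -0.299 among those with at least 3.

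Promoters inside the chromosome 4 cluster were covered as well, which was the exception among these genes. The promoter used here is the 250 bases before and 50 after the annotated start, given by RefSeq on build GRCm38.p6 for 43 of the 51 genes, with the first listed taken where a gene has several. Peaks overlapped 6 of the 43 promoters in the deleted list and 6 in the control list, 13.95% each, and 5 were the same genes. All 7 genes concerned lie in the chromosome 4 cluster. Among 17491 promoters of protein-coding genes, 2.09% were overlapped in the deleted list and 2.13% in the control list. The promoters of Zfp981, Zfp993, Zfp988, Zfp985 and Zfp534 were covered completely in both lists. That of Zfp982 was covered at 7.33% in the deleted list and 0% in the control list, and of its 2 other annotated promoters, 1 was covered completely in both lists and 1 had no peak in either. That of Zfp980 was at 0% in the deleted list and 100% in the control list, although 2 kb on each side of its start were covered at 75.3% in the deleted list and 76.2% in the control list.

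Several of these promoters are related in sequence, and 6 that carry a shared run of bases are shown, some of them under a peak and some not. The capitals mark TGGGAAGCTAATTA, the run of 14 bases that most of the 12 cluster promoters share. It is found in 9 of them, in no other promoter of the 43 and, counting both strands, in 11 of the 17491 promoters (0.0629%). Zfp982, counted here as lacking the run, carries it in another annotated promoter, the one covered completely in both lists. The match describes the family and says nothing of a bound factor. The first 4 lie under a peak in at least 1 list and the last 2 in neither.
Zfp981, chr4:146514670-146514969, plus strand: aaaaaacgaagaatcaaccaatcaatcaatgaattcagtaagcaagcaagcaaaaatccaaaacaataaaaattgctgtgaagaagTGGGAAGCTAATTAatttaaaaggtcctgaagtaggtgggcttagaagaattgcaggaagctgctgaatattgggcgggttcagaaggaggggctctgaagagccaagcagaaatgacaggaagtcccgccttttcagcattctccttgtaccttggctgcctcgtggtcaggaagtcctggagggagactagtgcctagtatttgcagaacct
Zfp980, chr4:145670447-145670746, plus strand: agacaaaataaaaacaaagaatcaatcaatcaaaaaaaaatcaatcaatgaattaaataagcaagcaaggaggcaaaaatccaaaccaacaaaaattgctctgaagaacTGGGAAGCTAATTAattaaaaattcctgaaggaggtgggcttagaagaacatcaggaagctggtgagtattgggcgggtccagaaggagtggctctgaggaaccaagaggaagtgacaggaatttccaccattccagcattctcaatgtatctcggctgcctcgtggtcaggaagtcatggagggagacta
Zfp988, chr4:147305354-147305653, plus strand: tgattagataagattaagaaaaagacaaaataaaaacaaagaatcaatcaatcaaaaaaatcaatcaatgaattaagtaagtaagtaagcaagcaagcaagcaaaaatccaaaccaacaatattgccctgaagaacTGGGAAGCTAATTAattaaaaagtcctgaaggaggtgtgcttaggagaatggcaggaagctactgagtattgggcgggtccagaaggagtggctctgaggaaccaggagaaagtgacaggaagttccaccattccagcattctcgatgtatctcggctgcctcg
Zfp534, chr4:147702582-147702881, minus strand: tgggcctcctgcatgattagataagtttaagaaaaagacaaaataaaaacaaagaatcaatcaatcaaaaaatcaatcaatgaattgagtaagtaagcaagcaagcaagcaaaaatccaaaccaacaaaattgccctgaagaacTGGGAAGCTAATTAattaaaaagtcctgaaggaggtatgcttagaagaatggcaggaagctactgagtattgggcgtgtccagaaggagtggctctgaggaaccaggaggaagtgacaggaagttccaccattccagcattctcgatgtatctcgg
Zfp600, chr4:146156577-146156876, plus strand: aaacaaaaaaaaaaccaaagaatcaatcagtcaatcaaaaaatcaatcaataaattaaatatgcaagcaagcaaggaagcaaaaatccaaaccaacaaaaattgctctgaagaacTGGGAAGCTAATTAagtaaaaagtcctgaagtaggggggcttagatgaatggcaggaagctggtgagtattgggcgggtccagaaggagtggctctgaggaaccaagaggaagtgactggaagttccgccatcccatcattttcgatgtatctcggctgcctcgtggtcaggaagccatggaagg
Zfp979, chr4:147642459-147642758, minus strand: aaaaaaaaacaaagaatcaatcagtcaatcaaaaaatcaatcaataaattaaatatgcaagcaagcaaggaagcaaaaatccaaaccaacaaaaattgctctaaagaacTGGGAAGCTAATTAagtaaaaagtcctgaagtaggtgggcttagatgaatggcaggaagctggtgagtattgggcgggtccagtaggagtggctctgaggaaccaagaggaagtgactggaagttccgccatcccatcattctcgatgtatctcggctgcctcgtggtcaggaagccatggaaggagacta

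Aligned end to end, the promoters of Zfp600 and Zfp979 were 94.4% identical and neither was overlapped in either list. Those of Zfp988 and Zfp534 were 89.5% identical and both were covered completely in both lists. The promoters of Zfp980 and Zfp600 were 88.6% identical, and only the first was overlapped, in the control list. Across the 66 pairs of cluster promoters identity ran from 39.4% to 94.4%, with a median of 60.1%. How reads that match several copies were placed was not given in the sources used here, so coverage of near-identical copies is uncertain.

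The chromosome 2 cluster of Zfp120, Zfp937, Zfp442 and Zfp345 spans 371 kb (150114407 to 150485063) and held the largest differences. Its span was covered at 41.7% in the deleted list and 33.8% in the control list, a difference of 7.89 points. Zfp937 was covered at 53.8% in the deleted list and 31.7% in the control list, 22.1 points higher. Zfp345 was covered at 57.0% in the deleted list and 37.4% in the control list, 19.6 points higher. Zfp442 had 37.9% in the deleted list and 31.3% in the control list. Zfp120 went the other way, at 37.9% in the deleted list and 44.0% in the control list. The 4 other protein-coding genes in the span averaged 43.5% in the deleted list and 38.2% in the control list.

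Within the gene body, Zfp937 differed in all 5 parts and Zfp345 mainly in parts 2 and 3. The 5 kb after the end of Zfp345 also differed, at 69.4% in the deleted list and 27.0% in the control list. The 5 kb before the start of Zfp937 were covered at 43.0% in the deleted list and 0% in the control list. Each gene body was divided into 5 equal parts from start to end. Part 4 of Zfp937 was covered at 100% in the deleted list and 74.1% in the control list, and part 5 at 62.5% and 24.1% in that order. Its widest peak measured 15234 bp in the deleted list and 8677 bp in the control list. In Zfp345, parts 4 and 5 were at 100% in the deleted list and at 99.3% and 100% in the control list. Part 3 of Zfp345 was at 65.6% in the deleted list and 11.7% in the control list. Part 1 was at 0% in both lists in Zfp120, Zfp442 and Zfp345, and in Zfp937 it was at 13.9% in the deleted list and 0% in the control list. None of the 4 promoters was overlapped in either list.

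Peaks of this cluster were less confident than those on chromosome 4. In the windows of the 4 genes, 11 of 22 peaks had a −log10 q of 2 or more in each list, 50% (Wilson 30.7 to 69.3%). The bases covered in both lists were 57.2% of the deleted-list bases and 70.6% of the control bases. The higher coverage of the span was not seen among the more confident peaks, with a difference of -0.430 points for a −log10 q of at least 2 and -2.90 for at least 3. With at least 3, Zfp937 differed by -5.02 points and Zfp345 by -24.8 points. Zfp120, covered less in the deleted list when all peaks were counted, differed by 28.7 points at that level. Of all peaks, 0.987% in the deleted list and 1.83% in the control list reached it.

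**Figure D3:**
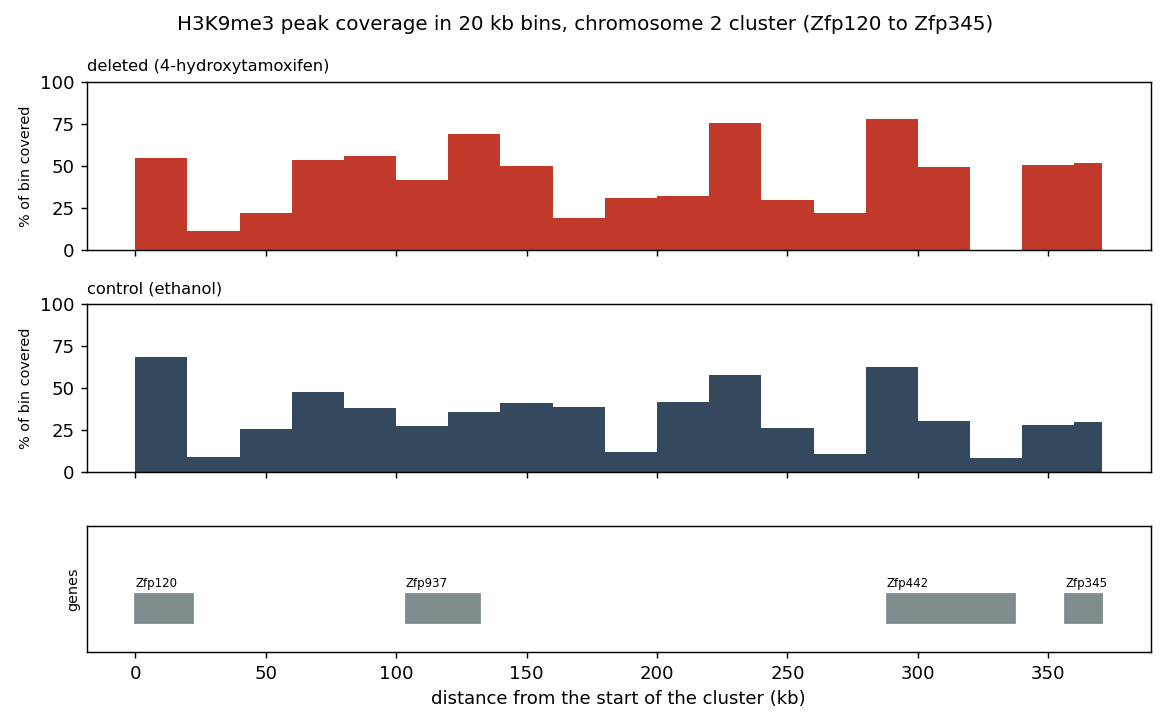
The upper panel (deleted) and the middle panel (control) give the percent of each 20 kb bin covered by peaks, against distance in kb from the start of the chromosome 2 cluster of Zfp120 to Zfp345, with its 4 genes as grey boxes. Of 19 bins, 10 are covered at least 10 points more in the deleted panel and 2 at least 10 points less. Bins of this size were not counted over the whole genome.

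The distal end of chromosome 2 held 9 further Zfp genes, and most of them had no peak in either list. From Zfp968 to Zfp973 (175372034 to 176681090, 1309 kb) there was no peak in either list, over 23 annotated genes of which 14 are protein-coding. The peak-free stretch ran from 175171257 to 176700303 and measured 1529 kb. It was the only stretch of 1 Mb or more without a peak in either list on chromosome 2. By length it ranked 14 among 35 such stretches on the main chromosomes, and 2 among 7 without chromosomes 14, X and Y. Beyond it, Zfp970 was covered at 1.44% in the deleted list and 0% in the control list. Zfp971 was covered at 9.14% in the deleted list and 0% in the control list, from 1 peak of 2064 bp with a −log10 q of 1.88. Zfp931 had 17.6% in the deleted list and 10.1% in the control list, and Zfp972 had no peak. Among peaks with a −log10 q of at least 2, none of these 9 windows held any covered base.

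The promoters of these 9 genes are related, and a closely matching pair from inside and outside the peak-free stretch is shown. The capitals mark ACTCTAACCCTAAG, the 14 bases shared by all 9 and found on either strand in 33 of the 17491 promoters (0.189%).
Zfp966, chr2:175931051-175931350, minus strand: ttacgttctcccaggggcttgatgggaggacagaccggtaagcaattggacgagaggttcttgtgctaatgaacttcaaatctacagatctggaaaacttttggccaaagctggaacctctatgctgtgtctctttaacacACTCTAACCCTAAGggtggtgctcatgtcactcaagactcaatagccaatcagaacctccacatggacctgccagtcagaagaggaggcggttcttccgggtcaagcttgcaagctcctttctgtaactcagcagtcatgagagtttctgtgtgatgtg
Zfp970, chr2:177464492-177464791, plus strand: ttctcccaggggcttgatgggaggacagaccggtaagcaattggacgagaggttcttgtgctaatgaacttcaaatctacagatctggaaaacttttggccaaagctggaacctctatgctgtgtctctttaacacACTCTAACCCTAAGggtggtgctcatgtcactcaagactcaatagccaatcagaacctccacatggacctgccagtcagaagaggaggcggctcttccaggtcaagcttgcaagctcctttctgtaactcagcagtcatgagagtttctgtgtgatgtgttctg

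The promoter of Zfp967 was 100% identical to that of Zfp966, and the promoters of Zfp968 and Zfp973 differed at 1 position. Zfp966 and Zfp970 were 96.1% identical when aligned end to end, with 12 differing columns of which 2 were substitutions. Among the 5 genes in the peak-free stretch the 10 pairs ran from 76.2% to 100%, and over all 9 genes the 36 pairs ran from 57.9% to 100%, with a median of 78.2%. Across the 105 pairs of promoters of lone genes the highest identity was 51.1%. Whether reads could be placed uniquely in this stretch was not tested, and a list of peaks cannot tell an unmarked stretch from one that reads could not reach.

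Along the gene, mean coverage was low at the start in members outside the chromosome 4 cluster and was already high there inside it, and it was highest in part 5 in both. Of the 34 genes with a peak, 29 had a known strand, 12 in the cluster and 17 elsewhere. For the 17, mean coverage in the deleted list was 4.81% in part 1 and 49.5% in part 5, and in the control list 4.91% in part 1 and 36.6% in part 5. Parts 4 and 5 together were covered more than parts 1 and 2 in 13 of the 17 genes in the deleted list and in 11 in the control list, and less in 2 genes in each list. Parts 1 and 2 held no peak in 11 of the 17 genes in each list. The 5 kb after the end had 25.6% in the deleted list and 17.05% in the control list, and the 5 kb before the start 5.08% and 1.22% in that order.

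The 12 genes of the chromosome 4 cluster were already covered at 35.2% in part 1 in the deleted list and 28.3% in the control list, and reached 56.5% and 55.4% in part 5 in that order. Parts 4 and 5 together were covered more than parts 1 and 2 in 8 of the 12 genes in each list, and less in 4. The 5 kb before their start had 38.2% in the deleted list and 32.9% in the control list. Single genes varied, and Zfp979 and Zfp933 had 0% in part 1 and 100% in part 5 in both lists. The 150 Zfp genes with a peak on other chromosomes had 4.59% in part 1 and 46.1% in part 5 in the deleted list, and 4.20% and 41.0% in the control list. All 6175 protein-coding genes with a peak and a known strand had 5.71% and 8.13% in the deleted list and 5.67% and 8.16% in the control list. The excess at the gene end was therefore shared with other Zfp genes and present in both cultures. In the 17 genes the difference between part 5 and part 1 was 44.7 points in the deleted list and 31.7 in the control list, and it stayed positive in both lists at every peak setting tried.

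**Figure D4:**
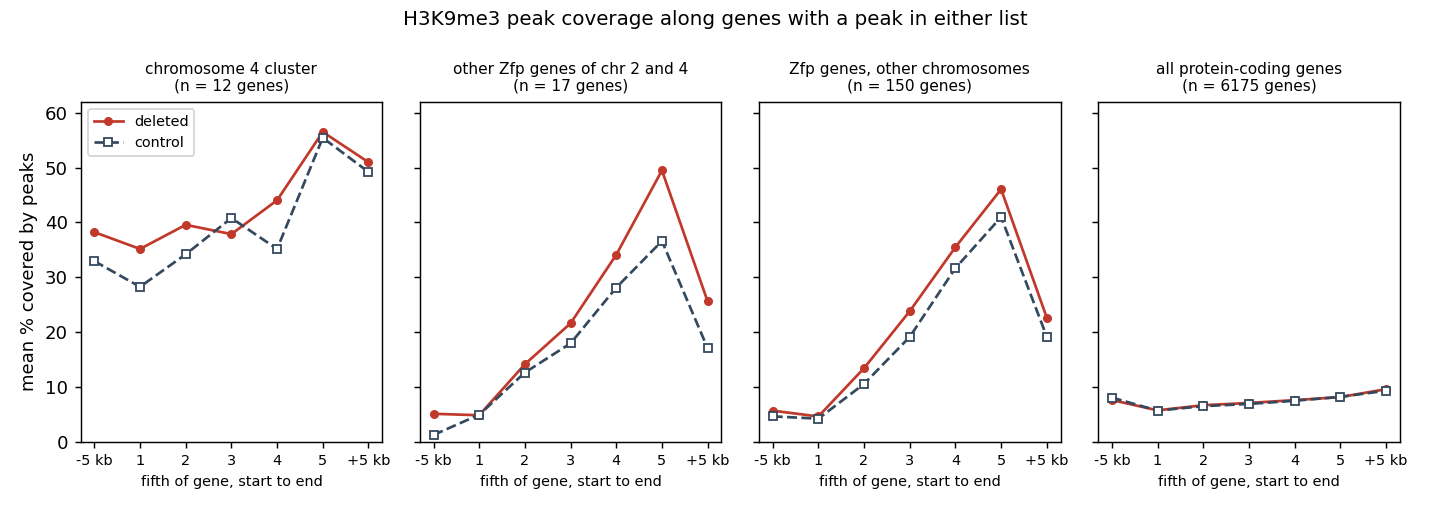
Mean percent covered by peaks (y axis) in the 5 kb before the gene, in 5 equal parts of the gene from start to end, and in the 5 kb after it, for genes with a peak in either list and a known strand. Solid lines are the deleted list and dashed lines the control list. Coverage climbs towards part 5 in both Zfp panels outside the chromosome 4 cluster and is nearly flat over all protein-coding genes.

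Of the 19 lone genes, 3 were covered at 10% or more in either list. Zfp37, known from testis and brain, was covered at 50.1% in the deleted list and 40.4% in the control list. Its parts 1 and 2 were at 0% in both lists, and part 5 was at 100% in both. Its widest peak was 10801 bp in the deleted list and 5002 bp in the control list. Zfp352, first known from 2-cell embryos, was covered at 43.2% in the deleted list and 36.8% in the control list. Its part 2 was at 100% and its part 4 at 0% in both lists, and its part 5 was at 34.9% in the deleted list and 0% in the control list. The 5 kb after its end were covered at 77.1% in the deleted list and 66.9% in the control list. The 500 kb on each side of Zfp352 were also covered, at 32.9% in the deleted list and 32.6% in the control list. Zfp189, studied in brain for its part in stress responses, had 17.6% in the deleted list and 15.9% in the control list, all of it in parts 3 to 5.

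The remaining lone genes had little or none. Zfp618, whose protein binds UHRF2, was covered at 2.72% in the deleted list and 0.371% in the control list. Zfp69, known from diabetes in obese mice, was at 1.89% in the deleted list and 2.96% in the control list. Zfp661 was at 1.39% in the deleted list and 7.38% in the control list, from a peak beyond its end. Zfp341, Zfp831 and Zfp292 were under 3% in both lists. The other 10 had no peak, and they include Zfp462, a regulator of cell identity, Zfp106, which encodes an RNA-binding protein needed in motor neurons, and Zfp217, whose human counterpart is amplified in breast cancer. The nearest peak to Zfp462 lay 33.1 kb away for the deleted list and 20.7 kb away for the control list.

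The cluster of Zfp335, Zfp663 and Zfp334 on chromosome 2 behaved like the lone genes, apart from 1 member. Its span of 496 kb was covered at 1.87% in the deleted list and 0.968% in the control list. Zfp663 was covered at 24.0% in the deleted list and 10.1% in the control list, 13.9 points higher. Its part 5 was at 100% in the deleted list and 30.02% in the control list, and part 4 at 45.4% and 26.7% in that order. The widest peak over it was 5276 bp in the deleted list and 1047 bp in the control list. Zfp334 was at 3.75% in the deleted list and 4.57% in the control list, and Zfp335, known from brain development, had no peak. No peak in the windows of these genes had a −log10 q of 2 or more.

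Taking all windows of the 51 genes, 162 deleted-list peaks and 151 control peaks were counted. In the deleted list 99 of them (61.1%, Wilson 53.4 to 68.3%) had a −log10 q of 2 or more, and in the control list 93 (61.6%, 53.6 to 69.0%). The shares over all peaks of the 2 lists were 11.5% and 18.8%. Median peak width was 2531 bp in the deleted list and 2152 bp in the control list, against 854 bp and 904 bp over all peaks in that order. No overlapping peak in the other list was found for 34 of the deleted-list peaks, 21.0% (15.4 to 27.9%), and for 11 of the control peaks, 7.28% (4.12 to 12.6%). Over all peaks these shares were 49.9% and 47.0%. Wide peaks meet a partner more easily, and this was not corrected for. The highest fold in these windows, the authors' own value, was 4.71 in the deleted list, in a peak of 2180 bp in the windows of Zfp978 and Zfp991, and 3.62 in the control list.

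Genes for the silencing machinery that KRAB zinc finger proteins use were marked far less than the Zfp genes. Of 26 such genes, the deleted list covered 1 more and 6 less, and none differed by 10 points. The other 19 (73.1%) had no peak in either list, against 64.6% of all protein-coding genes. Over all protein-coding genes 18.7% were higher and 16.7% lower, 2.39% and 2.52% by 10 points or more. The mean over the 26 was 0.596% in the deleted list and 0.940% in the control list. Over all protein-coding genes it was 2.89% in both lists. Atf7ip, which encodes a partner of SETDB1, was at 7.01% in the deleted list and 13.2% in the control list. Hdac2, a histone deacetylase gene, was at 5.46% in the deleted list and 2.95% in the control list. Trim28 had no peak in either list, and Setdb1 had 0% in the deleted list and 0.888% in the control list. Coverage does not show whether the gene had been deleted.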

How the data were processed

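H3K9me3 was profiled in 1 deleted and 1 control culture, with 8 µg of chromatin cut by micrococcal nuclease, per the labels' protocols. Inputs were not analysed here. The submitters' processing notes name BWA 0.7.17-r1188, MACS2, ChIPseeker 1.30.3 and mm10. How peaks were called, with which MACS2 version, inputs or pooling, is not given in the sources used here. For each peak the deposited files hold the authors' fold ratio, a −log10 p that was not used, −log10 q, and a score that is 10 times the −log10 q cut to a whole number in nearly every row. The peak names give replicate 2 and the labels replicate 1, so the lists were assigned by condition. Since read depth is unknown, a depth effect cannot be told apart from a difference in the mark.

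Genes were placed with RefSeq annotation of GRCm38.p6, the assembly behind mm10, and strand and promoters from a second RefSeq table, which matched 43 of the 51 genes. Covered percent was computed with Python 3.11.15, pandas 2.3.3 and numpy 2.4.6, and checked base by base on simulated peaks. Losses planted by removing control-list peaks around covered genes were all called, which the removal itself ensures. Overlap meant at least 1 bp. Promoters were aligned globally with Biopython 1.88 (match 2, mismatch -1, gap opening -5, gap extension -1). Figures were drawn with matplotlib 3.10.9. No test was made, since there is 1 library per condition, and the 10-point difference is a size, not a significance threshold.

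Genes, lists and comparisons were chosen with earlier results of these data known. The rule for named genes took, in each cluster, the member most covered in each list and those with the largest difference of at least 10 points in each direction. It also took lone genes covered at 10% or more, the 8 largest such differences in each direction over all genes, and a fixed set of genes. Other genes named, the promoter sequences and the 14-base runs were chosen after their values were seen. Zinc finger counts were planned from protein sequences, which were not used here. Alternatives covered peak confidence, fold, list size, peak joining, window, cluster distance and the overlap rule.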

Additional observations from a re-analysis of the deposited data

How the results depend on the processing

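Differences are deleted minus control in points. The mean difference over the 51 genes was 3.10 and was 1.98 at −log10 q of 2 or more, -1.15 at 3 or more, and 1.55 with each cluster, pair or lone gene counted once. Stricter thresholds leave fewer peaks, and the cause of the other changes was not tested. Genes higher by 10 points numbered 5, and 8 with the gene body alone. Genes lower by 10 points numbered 0, but 2 at −log10 q of 2 or more, 6 at 3 or more, 3 among peaks at or above the median fold, 1 at 1.5 or more and 1 with the gene body alone. The Zfp120 to Zfp345 span differed by -0.430 at 2 or more, -2.90 at 3 or more and 4.66 at 1.5 or more. The Zfp335 to Zfp334 span differed by 0 at 2 or more and at 3 or more, 1.76 with peaks joined within 5 kb and 7.81 with genes joined within 100 kb. The Zfp968 to Zfp966 span stayed at 0 except that joining within 1000 kb, which merges it with Zfp970 to Zfp931, gave 0.435. The Zfp970 to Zfp931 span differed by -0.183 at 2 or more, 0 at 3 or more, 1.02 at or above the median fold, 1.03 at 1.5 or more, 2.53 with joined peaks, 3.09 within 100 kb and 0.435 within 1000 kb. The Zfp990 to Zfp933 span differed by -0.299 at 3 or more and 2.05 at or above the median fold.

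The deleted-list share of peaks without a partner was 36.2% at or above the median fold, 11.1% with joined peaks, 35.8% when 50% of the peak had to overlap and 4.32% when a peak within 5 kb counted. The control share was 12.9% at −log10 q of 2 or more, 35.4% at 3 or more, 19.6% at or above the median fold, 3.64% with joined peaks, 14.2% with 20 kb flanks, 13.9% at 50% and 1.32% within 5 kb. The excess of part 5 over part 1 was 9.86 points in the deleted list and 15.4 in the control list at −log10 q of 3 or more. Of 144 alternative values for 18 named genes, 70 kept their sign and their size within 1.5 times, 14 turned sign and 19 were at 0 where the value given was not. The 8 of Zfp462 were at 0 throughout. Of the 18 named genes, 12 turned sign in at least 1 alternative. Zfp937, Zfp345 and Zfp990, called higher, turned to -5.02, -24.8 and -16.0 at 3 or more, and Zfp120 turned from -6.13 to 28.7. At 1.5 or more, Zfp352 turned to -11.1 and Zfp37 to -2.02. The setting of −log10 q of 1.5 or more, and all settings for position along the gene, were chosen after seeing the data. No paired analysis was possible because each condition had 1 library, and no replicate could be left out. Unknown depth limits each comparison between the lists.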
